A study of Mus musculus with 12 samples.

Results

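Glycolysis and the pentose phosphate pathway were followed through 32 genes, listed by name and taken from a table of 37187 genes. The list held glucose transporters, glycolytic enzymes with their isoenzymes, lactate and pyruvate handling genes and enzymes of the pentose phosphate pathway. All 32 were found in the table and all 32 passed the filter on low values, among 14045 genes tested. The cells were LSK cells, mouse bone marrow cells sorted as lineage-negative and positive for Sca-1 and c-Kit, the gate that holds blood stem cells and multipotent progenitors. Their genotypes were a double knockout of Tet2 and Traf6 (labelled Tet2;TRaf6 dKO, here dKO), a single knockout of Tet2 (Tet2 KO), a single knockout of Traf6 (Traf6 KO) and wild type (WT), with 3 libraries each. No treatment was named, and the alleles, any Cre driver, and the mice's age and sex are not stated in the sources used here. TET2 oxidises methylated cytosine in DNA. TRAF6 is a ubiquitin ligase that relays signals of Toll-like and interleukin-1 receptors. The series title ties TRAF6 to MYC in acute myeloid leukaemia, and MYC is a transcription factor known to drive many genes of glucose use.

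Glycolysis splits glucose into pyruvate in the cytosol and yields ATP and NADH. Lactate dehydrogenase then turns pyruvate into lactate, or the pyruvate dehydrogenase complex passes it to the mitochondria, a step that pyruvate dehydrogenase kinases block. The pentose phosphate pathway branches off at glucose 6-phosphate and makes NADPH and ribose for nucleotides. Blood stem cells at rest are known for low oxygen use and reliance on glycolysis, which hypoxia-inducible factors and MEIS1 have been tied to in mice.

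The values are the deposited normalised signal, whole reads divided by a size factor of each library, and 22169673 to 53921402 reads lay behind a library. The signal total of dKO 3 was 39973892, against 25557760 to 28916082 in the other 11 libraries. A test called a gene changed where its limma adjusted p, over all 14045 genes, was under 0.05. Nothing in the labels says that a group's 3 libraries are from different mice, so the p-values reflect only library-to-library spread, which may be technical. Tet2 read 326, 197 and 261 in dKO, 668, 403 and 486 in Tet2 KO, 722, 339 and 427 in Traf6 KO and 525, 783 and 739.6 in WT. Traf6 stood at 799, 1313 and 967 in dKO, 3127, 1432 and 1776 in Tet2 KO, 2474, 854 and 568 in Traf6 KO and 1935, 3006 and 2956 in WT. The library labelled Tet2 KO 1 thus held Tet2 within the WT range, and the library labelled Traf6 KO 1 held Traf6 within the WT range. Tet2 was also below the WT range in Traf6 KO 2 and Traf6 KO 3, near its level in Tet2 KO 2 and Tet2 KO 3. Its level therefore did not separate the 2 single knockouts. Traf6 was below the WT range in Tet2 KO 2 and Tet2 KO 3, but above Traf6 KO 2 and Traf6 KO 3. Kit, the c-Kit of the sorting gate, stood at 11935, 4099 and 4105 in dKO, against 44484, 47837 and 47804 in WT, a change of -3.00 (SE 0.39, limma adjusted p = 0.000326). Short transcripts were high and long transcripts low in the dKO libraries, with medians in dKO 1, 2 and 3 of 0.78, 1.20 and 2.84 (log2, relative to the WT mean) for transcripts up to 1000 nt and of -0.81, -1.42 and -1.41 for those over 4000 nt. For this reason the 13 genes called in dKO against WT are also given after a trend on transcript length and GC content had been taken off in each library.

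Per kilobase of the longest annotated transcript, Ldha was the most abundant of the 32 in WT, with a mean of 14650 signal units per kb. Ldha encodes the muscle-type subunit of lactate dehydrogenase. Aldoa (aldolase A) followed at 7250 per kb, then Tpi1 (triosephosphate isomerase) at 5968, Tkt (transketolase) at 5270, Taldo1 (transaldolase) at 5115 and Hk1 (hexokinase 1) at 3884. Tpi1, Tkt and Taldo1 are close in this order, and their WT libraries were not tested against each other. At the low end Eno2, the neuronal enolase, had 23.8 per kb and Gapdh had 25.4. Gapdh encodes a glycolytic dehydrogenase that is usually among the most abundant transcripts of a cell, and its low signal stands beside many near copies: 27.2% of the 50-nt windows of its longest transcript also occur in 213 other genes, 208 of them pseudogenes. Pgk1 shared 68% of such windows with 5 pseudogenes, Eno1 72.2% with 9 other genes, 8 of them pseudogenes, and Pgam1 41.5% with 4. How the counting treated reads that match several genes is not stated in the sources used here, so the values of these 4 genes are uncertain.

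On the deposited values all calls among the 32 genes came in comparisons that include dKO. Against WT, 10 of the 32 genes rose and 3 fell in dKO, so 31.2% of the members rose where 21.9% of all tested genes did, and 9.38% fell where 26.5% of all genes did. Those that rose were Gpi1, Aldoa and Tpi1 of the upper pathway, Pgk1, Pgam1, Eno1 and Eno3 of the lower pathway, Ldha and Pdk3 at the fate of pyruvate, and Taldo1 of the pentose phosphate pathway. The genes that fell were Hk1, Slc2a3 and Pfkfb3, which act at glucose uptake, its first phosphorylation and the control of phosphofructokinase. The median change of the 32 genes in dKO against WT was -0.15 on the log2 scale, beside -0.09 over all tested genes. Scaled to equal library totals, the split was 7 higher and 5 lower, that is 58.3% higher among the called, against 76.9% on the deposited values, and 16.3% of all genes were higher and 29.6% lower. That scaling moved the median of all genes to -0.34, and Gpi1, Eno3 and Pdk3 were no longer called. Without dKO 3 the count was 11 higher and 3 lower, beside 17.4% higher and 23.7% lower among all genes. Without dKO 1 it was 12 higher and 7 lower, or 63.2% higher among the called, beside 25.5% and 29.8% of all genes. In the same comparison 7 of 12 markers of the LSK gate and stem cells fell and 5 of 7 mast cell and basophil markers rose, while with the trend removed 4 of the LSK markers fell, 1 rose and the same number of mast cell markers rose, and their part in the result was not tested. In these bulk samples, fewer cells of a type and less RNA per cell cannot be told apart.

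**Figure D1:**
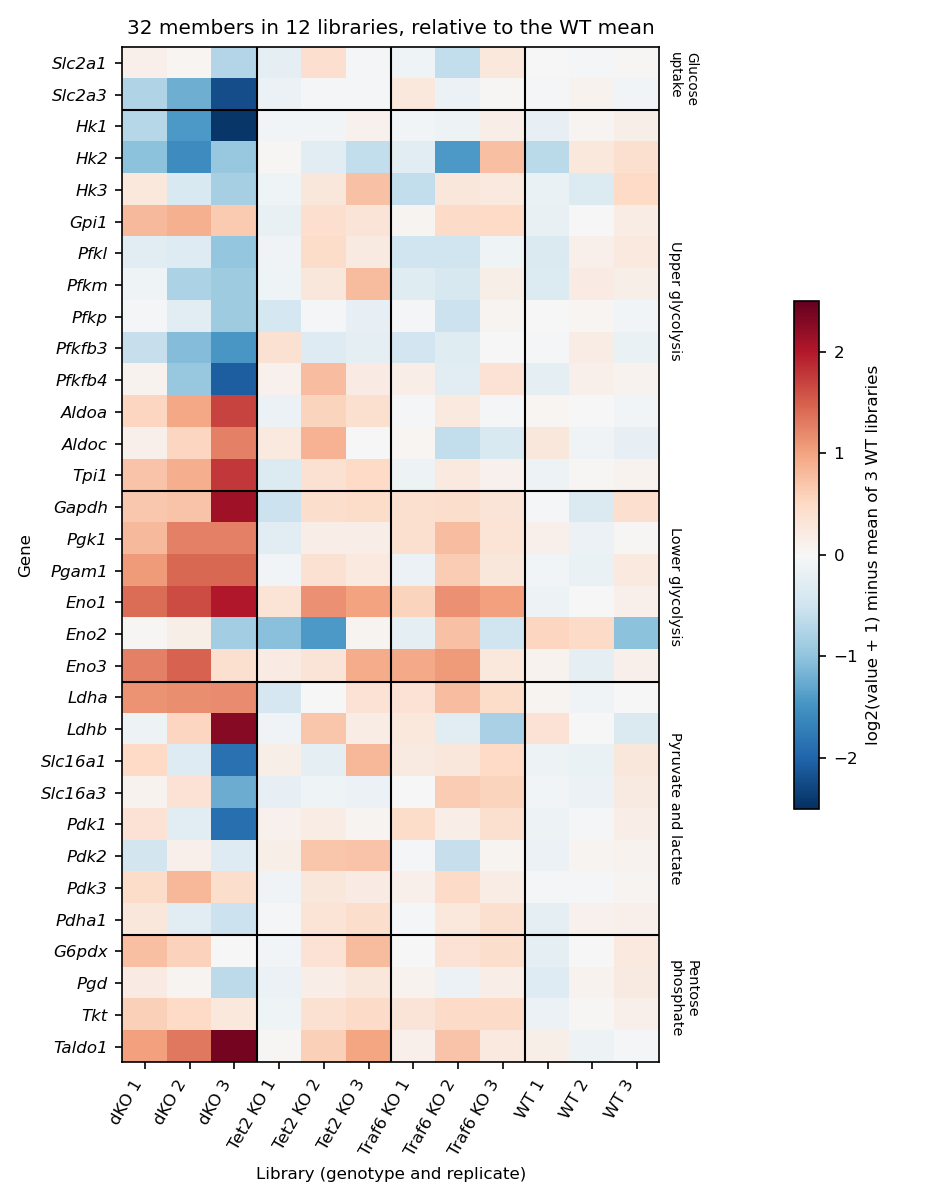
Levels of the 32 genes in each of the 12 libraries, as log2(value + 1) minus the mean of the 3 WT libraries (colour), with genes in rows by pathway role and libraries in columns. The 3 dKO columns hold the strongest colours, with dKO 3 farthest from WT for Hk1, Slc2a3, Aldoa, Tpi1 and Taldo1, and Eno1 is above WT in all 9 mutant columns.

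Once the length and GC trend had been taken off, 4 of the 32 genes rose in dKO against WT and 0 fell, with 28 not past the threshold. The 4 were Eno1, Gpi1, Tkt and Gapdh. That share, 12.5% higher and 0% lower, stands beside 15.5% higher and 14.1% lower among the 13677 genes with a known length, so the share that rose was not above that of all genes. Eno1 and Gpi1 were called on both scales. The trend took the longest annotated transcript as a gene's length, 3289 nt for Gapdh, 3195 nt for Gpi1, 3223 nt for Tkt and 2027 nt for Eno1. Which transcripts these cells express was not tested. A gene whose main transcript is shorter would be given another trend, so these calls depend on the length used.

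**Figure D2:**
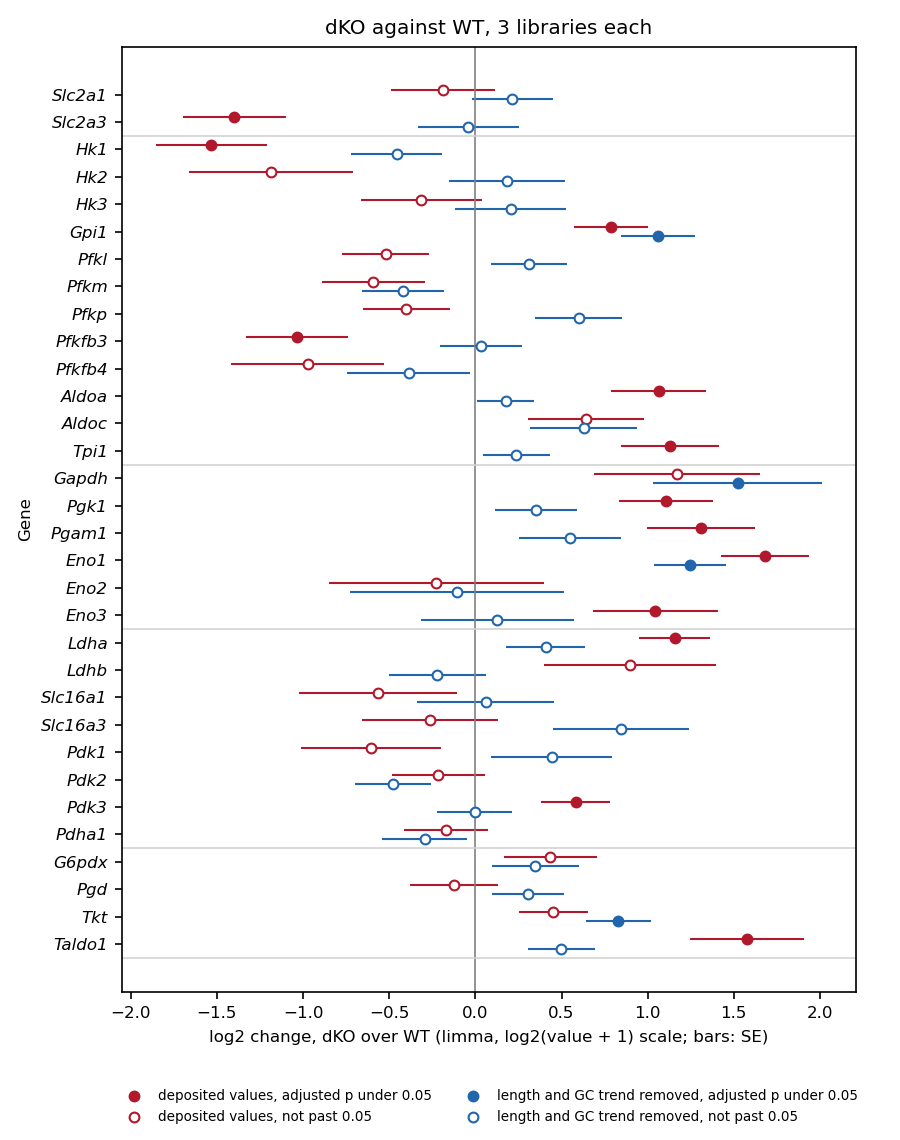
Log2 change of each of the 32 genes in dKO over WT (x axis, bars are SE, 3 libraries a group) on the deposited values and after removal of the length and GC trend, by pathway role from top to bottom. Filled points passed an adjusted p of 0.05: 13 on the deposited values and 4 with the trend removed, with Eno1 and Gpi1 filled on both.

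Glucose enters blood cells through facilitative transporters. Slc2a3, which encodes the high-affinity transporter GLUT3 (chromosome 6, 122727809 to 122801640, GRCm38), stood at 2864, 2083 and 1040.1 in dKO, 4384, 4702 and 4743 in Tet2 KO, 5822, 4392 and 4949 in Traf6 KO and 4771, 5162 and 4625 in WT. All 3 dKO libraries lay below the other 9. Its change in dKO against WT was -1.40 (SE 0.30, limma adjusted p = 0.00301), and -0.04 once that trend was taken off (limma adjusted p = 0.933), for a longest transcript of 6253 nt. Slc2a1, which encodes the widespread transporter GLUT1, did not pass the test in any comparison. Its means were 1258 ± 369.5 in dKO, 1452 ± 356 in Tet2 KO, 1283 ± 374 in Traf6 KO, against 1384 ± 27.9 in WT (SD, n = 3 each), and its 12 libraries ranged over 833 to 1852.

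Hexokinases phosphorylate glucose and so trap it in the cell. Hk1 (chromosome 10, 62268855 to 62379908), the main hexokinase by level in these cells, stood at 10045, 6076 and 3065 in dKO, 15774, 15716 and 17796 in Tet2 KO, 15850.0, 15051 and 18455 in Traf6 KO and 14419.6, 17233 and 18197 in WT. The dKO libraries were again below the other 9, with dKO 3 lowest. Hk1 changed by -1.53 (SE 0.32, limma adjusted p = 0.00282) in dKO against WT, and this call held with each of the 12 libraries left out in turn. With the trend removed the change was -0.46 (limma adjusted p = 0.208). Hk2, the insulin-regulated and MYC-responsive hexokinase, averaged 360.3 ± 80.3 in dKO, 668 ± 151 in Tet2 KO, 771 ± 539 in Traf6 KO, against 848 ± 300.0 in WT (SD, n = 3 each), over a range of 269 to 1358. Hk3, the form typical of myeloid cells, averaged 2985 ± 1160.0 in dKO, 4469.8 ± 1301 in Tet2 KO, 3615 ± 1122 in Traf6 KO, against 3654 ± 1202 in WT (SD, n = 3 each), over a range of 1977 to 5858. Neither passed in any of the 6 comparisons on the deposited values of all 12 libraries. Hk2 was close to the threshold in dKO against WT, at -1.19 (SE 0.47, limma adjusted p = 0.0536). It was called lower there by edgeR and DESeq2, by limma on equal library totals or on these 6 libraries alone, and without WT 1, Traf6 KO 2 or Traf6 KO 3, and in dKO against Traf6 KO without Traf6 KO 2. Hk3 was called lower in dKO against Tet2 KO without dKO 1.

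Gpi1 (chromosome 7, 34201330 to 34230336), glucose 6-phosphate isomerase, converts the product of hexokinase to fructose 6-phosphate. It stood at 15987, 16876 and 14271 in dKO, 7958, 12207 and 11413 in Tet2 KO, 9542, 12729 and 12899 in Traf6 KO and 7969.7, 9134 and 10304 in WT. All 3 dKO libraries lay above the other 9, while the single knockouts overlapped WT. The change in dKO against WT was 0.79 (SE 0.22, limma adjusted p = 0.0103), and after removal of the length and GC trend 1.06 (SE 0.21, limma adjusted p = 0.00359). On libraries scaled to equal totals the call was lost. Its longest transcript, 3195 nt, is of middle length. A single pseudogene, Gm1840, holds 10.2% of its 50-nt windows, and the pseudogene stood at 60.1, 78.3 and 67.9 in dKO, against 36.9, 38.8 and 45.2 in WT.

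Phosphofructokinase commits sugar to glycolysis, and its 3 subunit genes did not pass the test in dKO against WT. Pfkl, the liver type and the most abundant here per kb, stood at 8342, 8066 and 5118 in dKO, 9485, 13774 and 11735 in Tet2 KO, 7165, 7075 and 9289.8 in Traf6 KO and 7824, 10985 and 11838 in WT. Pfkm, the muscle type, stood at 2152, 1338 and 1240.3 in dKO, 2143, 2795 and 3982 in Tet2 KO, 1859, 1736 and 2545 in Traf6 KO and 1816, 2646 and 2552 in WT. Pfkp, the platelet type, averaged 2712 ± 774 in dKO, 2974 ± 397 in Tet2 KO, 3152 ± 669 in Traf6 KO, against 3473 ± 141 in WT (SD, n = 3 each), over 1866 to 3642. The dKO 2 and dKO 3 values of Pfkm were the lowest of the 12, while dKO and WT overlapped for Pfkl and Pfkp.

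The bifunctional enzymes PFKFB3 and PFKFB4 set the level of fructose 2,6-bisphosphate, the strongest activator of phosphofructokinase. Pfkfb3 stood at 652, 458 and 356 in dKO, 1269.9, 776 and 818 in Tet2 KO, 701, 790.0 and 969 in Traf6 KO and 949, 1110.5 and 872 in WT. Each dKO library was below the other 9, and the change against WT was -1.04 (SE 0.30, limma adjusted p = 0.0124). The call was lost without WT 2, and with the trend removed the change was 0.03. Pfkfb4 stood at 512, 250.4 and 114 in dKO, 521, 824 and 558 in Tet2 KO, 538, 396 and 620.4 in Traf6 KO and 415, 526 and 515 in WT, with dKO 1 inside the WT range and dKO 3 far below it. Its change in dKO against WT, -0.97, did not pass (limma adjusted p = 0.0852).

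Aldolase and triosephosphate isomerase split the 6-carbon sugar and interconvert the products. Aldoa stood at 16199, 21915 and 36410.5 in dKO, 10196, 16412 and 14835 in Tet2 KO, 10807, 13211 and 10896 in Traf6 KO and 11584, 11348 and 10762 in WT. Tpi1 stood at 15604, 17989 and 32691 in dKO, 7584, 12548 and 13452 in Tet2 KO, 8822, 11362 and 10373 in Traf6 KO and 8818, 9785 and 10170.0 in WT. In both genes dKO 3 was highest by a wide margin. For Tpi1 all 3 dKO libraries lay above the other 9, while for Aldoa dKO 1 lay just below Tet2 KO 2. The change in dKO against WT was 1.06 (SE 0.27, limma adjusted p = 0.00744) for Aldoa and 1.13 (SE 0.28, limma adjusted p = 0.00682) for Tpi1, and each call held with every library left out in turn. With the trend removed the changes were 0.17 and 0.24 (limma adjusted p = 0.447 and 0.382), for transcripts of 1549 and 1607 nt. Aldoc, the brain-type aldolase, stood at 859.6, 1140.0 and 1899.8 in dKO, 930.3, 1436 and 778 in Tet2 KO, 819.5, 514 and 604 in Traf6 KO and 956, 744 and 688 in WT.

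The lower part of the pathway yields ATP. Gapdh stood at 130.4, 134 and 357 in dKO, 55.9, 110.4 and 112 in Tet2 KO, 108, 111 and 102 in Traf6 KO and 78.1, 62.8 and 109.6 in WT. The 3 dKO libraries lay above the other 9, with dKO 3 far above dKO 1 and dKO 2. Its change in dKO against WT was 1.17 (SE 0.48, limma adjusted p = 0.0582), short of the threshold though called by edgeR and DESeq2, and on the scale free of the length and GC trend it was 1.52 (SE 0.49, limma adjusted p = 0.0321). With dKO 3, the highest library, also left out, Gapdh was not called. Pgk1, phosphoglycerate kinase, stood at 609, 828 and 826 in dKO, 287, 390.1 and 390.3 in Tet2 KO, 458, 588 and 441 in Traf6 KO and 376, 311 and 355 in WT. Pgam1, phosphoglycerate mutase, stood at 442, 570.0 and 572 in dKO, 200.4, 273 and 250.5 in Tet2 KO, 191, 329.5 and 256 in Traf6 KO and 199, 188 and 248 in WT. In both, the 3 dKO libraries lay above the other 9, with a change against WT of 1.11 (SE 0.27, limma adjusted p = 0.00607) for Pgk1 and 1.31 (SE 0.31, limma adjusted p = 0.00503) for Pgam1. Neither passed with the trend removed, at 0.35 and 0.55 (limma adjusted p = 0.286 and 0.18).

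Eno1 (chromosome 4, 150236721 to 150248879), the ubiquitous enolase that makes phosphoenolpyruvate, had the largest change of the 32 genes on the deposited values. It stood at 8392, 9894 and 12777 in dKO, 4043, 7045 and 6349.5 in Tet2 KO, 4667, 7030.0 and 6444 in Traf6 KO and 2904, 3186 and 3474 in WT. All 9 mutant libraries lay above WT, and the dKO libraries lay above all single knockouts. The change in dKO against WT was 1.68 (SE 0.26, limma adjusted p = 0.000539), and 1.25 (SE 0.21, limma adjusted p = 0.00154) with the trend removed. In the single knockouts it was 0.83 (SE 0.26, limma adjusted p = 0.241) in Tet2 KO against WT and 0.91 (SE 0.26, limma adjusted p = 0.28) in Traf6 KO against WT, which did not pass. Gm5506, which RefSeq lists under the name Eno1b, is an enolase copy that holds 70.5% of the 50-nt windows of Eno1, and it was named after its values were seen. It stood at 5.6, 2.6 and 7.1 in dKO, 3.2, 4.8 and 7.8 in Tet2 KO and 3.6, 3.5 and 1.8 in Traf6 KO, against 284, 313 and 321 in WT. Gm5506 was thus low in the same 9 libraries in which Eno1 was high, and its part in the Eno1 result was not tested.

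Eno3, the muscle enolase, stood at 549, 640.4 and 306 in dKO, 265, 288 and 438 in Tet2 KO, 443, 481 and 278 in Traf6 KO and 244, 198 and 252 in WT, and its rise in dKO against WT was called with 1.04 (SE 0.36, limma adjusted p = 0.0292), and it was 0.13 with the trend removed (limma adjusted p = 0.856), for a transcript of 1564 nt. The dKO libraries lay above WT and overlapped both single knockouts. That call was lost without dKO 1, dKO 2 or any 1 of the WT libraries. Eno2 was near the floor of the filter, at 53.2 ± 18.4 in dKO, 37.5 ± 22.1 in Tet2 KO, 64.1 ± 31.2 in Traf6 KO, against 66.5 ± 32.7 in WT (SD, n = 3 each), over 21.3 to 99.8.

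**Figure D3:**
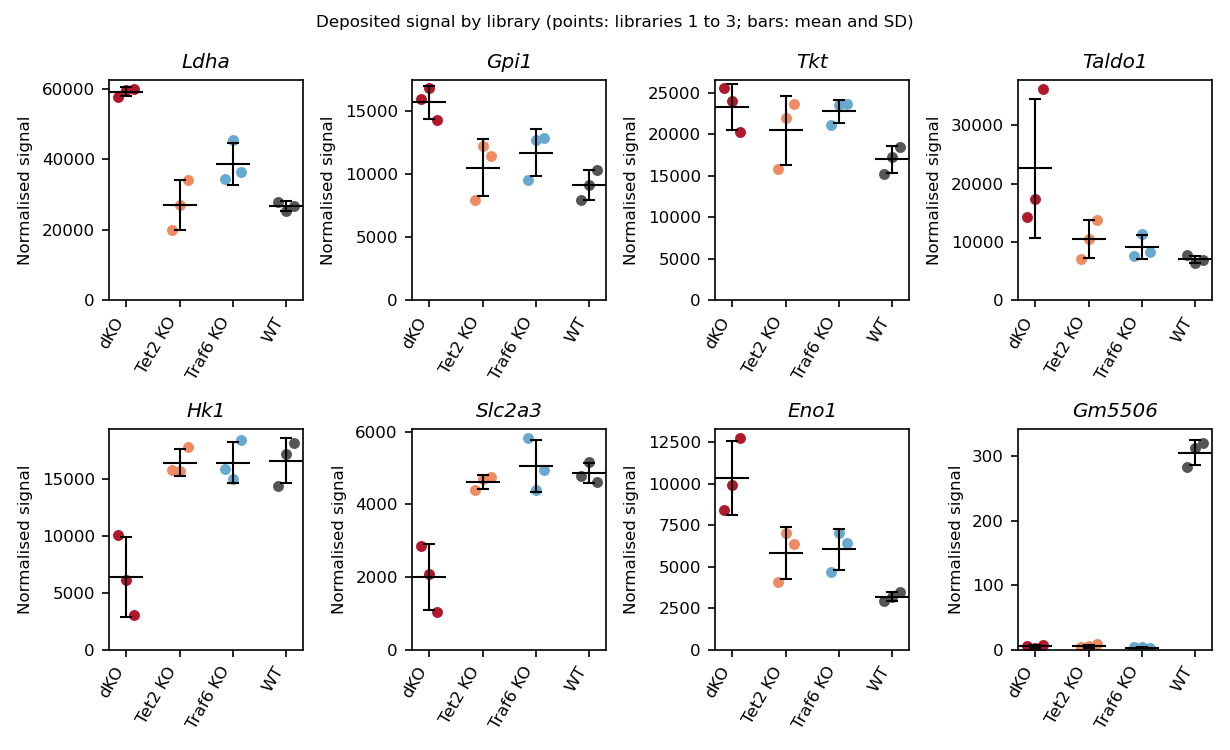
Deposited signal of 7 of the genes and of the enolase copy Gm5506 in each library (y axis, from 0), with points for libraries 1 to 3 and bars for the mean and SD of each genotype. The 3 dKO libraries sit at 57756 to 60096 for Ldha, above all others, and below all others for Hk1 and Slc2a3, while Gm5506 is at 284 to 321 in WT and at most 7.8 in the 9 mutant libraries.

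Lactate dehydrogenase reduces pyruvate to lactate and restores NAD+ for the step of GAPDH. Ldha (chromosome 7, 46841475 to 46855627) stood at 57756, 59778 and 60096 in dKO, 19794, 26919.9 and 33974 in Tet2 KO, 34348, 45509 and 36402 in Traf6 KO and 27974, 25156 and 26664 in WT. The 3 dKO libraries were close together and above the other 9, and all Traf6 KO libraries lay above WT. The change in dKO against WT was 1.16 (SE 0.21, limma adjusted p = 0.00118), and it held with each library left out in turn, between 1.12 and 1.19. In Traf6 KO against WT it was 0.53 (SE 0.21, limma adjusted p = 0.546). Free of the length and GC trend the dKO change was 0.41 (limma adjusted p = 0.196), and with dKO 3 also left out it was 0.65 (SE 0.19, limma adjusted p = 0.0238). Ldhb, the heart-type subunit, stood at 1053, 1660.4 and 5562 in dKO, 1075, 1845 and 1306 in Tet2 KO, 1372, 952 and 648 in Traf6 KO and 1478, 1142 and 885 in WT, with dKO 3 far above the rest. It did not pass limma's test in any comparison with all 12 libraries, while edgeR and DESeq2 called it higher in dKO against Traf6 KO and DESeq2 also in dKO against WT. Without dKO 1 limma called it higher in both of these comparisons.

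The promoters of Ldha, Eno1 and Gpi1 are shown because Eno1 and Gpi1 were called on both scales and Ldha is the most abundant of the 32, and because the E-box read by MYC and MAX and the core read by hypoxia-inducible factors can be looked up in them. The windows run from 250 bases before to 50 bases after the transcript start, in RefSeq's table on GRCm38.p6, 5′ to 3′ on the gene's strand. Capitals mark CACGTG (E-box), ACGTG and GCGTG (hypoxia response cores) on both strands, and every CACGTG also holds ACGTG.
Ldha, chr7:46845554-46845853, plus strand: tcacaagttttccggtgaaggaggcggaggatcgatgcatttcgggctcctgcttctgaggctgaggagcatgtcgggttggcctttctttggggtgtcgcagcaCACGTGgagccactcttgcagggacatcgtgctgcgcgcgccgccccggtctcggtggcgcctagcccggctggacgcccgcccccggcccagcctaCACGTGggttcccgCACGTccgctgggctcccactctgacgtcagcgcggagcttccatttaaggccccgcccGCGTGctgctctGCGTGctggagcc
Eno1, chr4:150236947-150237246, plus strand: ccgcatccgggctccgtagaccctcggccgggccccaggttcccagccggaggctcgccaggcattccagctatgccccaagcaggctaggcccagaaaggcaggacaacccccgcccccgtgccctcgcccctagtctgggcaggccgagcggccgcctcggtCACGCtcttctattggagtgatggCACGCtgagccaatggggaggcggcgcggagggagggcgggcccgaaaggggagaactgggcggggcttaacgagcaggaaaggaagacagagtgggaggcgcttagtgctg
Gpi1, chr7:34230287-34230586, minus strand: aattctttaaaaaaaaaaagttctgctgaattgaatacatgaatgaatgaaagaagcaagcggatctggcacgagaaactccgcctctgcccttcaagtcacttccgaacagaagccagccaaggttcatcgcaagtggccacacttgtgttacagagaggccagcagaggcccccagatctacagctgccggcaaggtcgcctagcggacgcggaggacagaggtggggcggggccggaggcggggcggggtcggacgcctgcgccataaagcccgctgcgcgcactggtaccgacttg
The Ldha window shown held 2 copies of CACGTG, which begin 145 and 48 bases before the start, and also ACGTG and GCGTG. A further Ldha window, at another transcript start and not shown, held 2 copies of GCGTG but neither CACGTG nor ACGTG. The Eno1 window shown held only 2 copies of GCGTG in reverse, and the Eno1 windows not shown also held GCGTG alone. The Gpi1 window held none of the 3 motifs. The table held 45 windows for 31 of the 32 genes. CACGTG was in 5 of them (11.1%), those of Ldha, Pdk2, Pfkfb3, Pfkm and Slc16a1, against 7.15% of all 32851 windows. ACGTG was in 20 of the 45 windows (44.4%), against 19.6% of all windows, and GCGTG in 27 (60%), against 32.4%. These 5 genes with an E-box were split in dKO against WT, since Ldha rose, Pfkfb3 fell and the other 3 did not pass. Windows of the same gene were counted separately, and some overlap, as do windows of Eno1 and Aldoa. The GC content of these windows was not set against that of all windows, so the shares were not matched for it. A match describes letters in a window and is no measure of binding.

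Lactate leaves the cell through monocarboxylate transporters. Slc16a1 (MCT1) averaged 4601 ± 3183 in dKO, 6910.2 ± 2668 in Tet2 KO, 7007 ± 740.5 in Traf6 KO, against 5615 ± 1030.0 in WT (SD, n = 3 each), and its dKO libraries were spread over 7873, 4415 and 1516. Slc16a3 (MCT4), the lactate exporter of glycolytic cells, averaged 287 ± 140.1 in dKO, 279 ± 8.8 in Tet2 KO, 416 ± 94.9 in Traf6 KO, against 312 ± 44.3 in WT (SD, n = 3 each), over 130.5 to 485. Neither passed in a comparison on the deposited values of all 12 libraries. Without dKO 1, Slc16a1 was called lower in dKO against WT. Slc16a3 was called higher with the trend removed and dKO 3 left out, at 1.26 (SE 0.35, limma adjusted p = 0.0213) against WT and 1.24 (SE 0.35, limma adjusted p = 0.0471) against Tet2 KO, where its deposited values with all libraries gave -0.26 and -0.11.

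Pyruvate dehydrogenase kinases switch off entry of pyruvate into the mitochondrial cycle. Pdk3 stood at 6836, 8846 and 6764 in dKO, 4686, 6000.1 and 5719 in Tet2 KO, 5424, 6913 and 5663 in Traf6 KO and 4885, 4822 and 5179 in WT. Its change in dKO against WT, 0.58 (SE 0.20, limma adjusted p = 0.0278), was lost without dKO 2 or any 1 of the WT libraries, and it was -0.004 with the trend removed. The dKO libraries lay above WT, while Traf6 KO 2 reached into their range. Pdk1, the kinase induced by hypoxia-inducible factors, ranged from high in dKO 1 to low in dKO 3, at 10433, 6659.8 and 2193 in dKO, against 7422, 7989 and 9082 in WT. Pdk1 did not pass with all 12 libraries. In dKO against WT it changed by -0.61 on the deposited values and 0.44 with the trend removed (limma adjusted p = 0.231 and 0.368). On the deposited values it was called lower without dKO 1 and was not called without dKO 3. With the trend removed and dKO 3 left out it was called higher, at 1.01 (SE 0.16, limma adjusted p = 0.002). Pdk2 stood at 899.9, 1359 and 988 in dKO, 1375, 2014 and 2031 in Tet2 KO, 1188, 829 and 1298 in Traf6 KO and 1109.7, 1296 and 1316 in WT. Pdha1, the catalytic subunit that these kinases phosphorylate, averaged 5185 ± 1567 in dKO, 6783 ± 1118 in Tet2 KO, 6628 ± 987 in Traf6 KO, against 5706 ± 785 in WT (SD, n = 3 each), over 3885 to 7679.

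In the pentose phosphate pathway G6pdx and Pgd encode the dehydrogenases that make NADPH. G6pdx averaged 4249 ± 1101 in dKO, 4049.6 ± 1183 in Tet2 KO, 3726 ± 559 in Traf6 KO, against 3091 ± 503 in WT (SD, n = 3 each), over 2613 to 5294. Pgd averaged 3410.5 ± 986 in dKO, 3896 ± 592 in Tet2 KO, 3709 ± 405 in Traf6 KO, against 3644 ± 676 in WT (SD, n = 3 each), over 2289 to 4394. Neither passed in a comparison. Tkt (chromosome 14, 30548359 to 30574720) and Taldo1 (chromosome 7, 141392199 to 141402968) encode the enzymes that return pentoses to glycolysis. Tkt stood at 25554, 24042 and 20263 in dKO, 15766, 21959.6 and 23649.9 in Tet2 KO, 21099, 23547 and 23622 in Traf6 KO and 15247, 17289 and 18418 in WT. All 3 dKO libraries lay above WT, and dKO 1 and dKO 2 also above every single knockout, with a change against WT of 0.45 (SE 0.20, limma adjusted p = 0.073) on the deposited values and 0.83 (SE 0.19, limma adjusted p = 0.00653) with the trend removed. Taldo1 stood at 14189, 17299 and 36298 in dKO, 7124, 10494 and 13732 in Tet2 KO, 7546, 11418 and 8223 in Traf6 KO and 7669.6, 6383 and 6847 in WT. All 3 dKO libraries were above the other 9, with dKO 3 at more than the level of dKO 1 and dKO 2 together. Its change against WT was 1.58 (SE 0.33, limma adjusted p = 0.00277), and 0.50 with the trend removed (limma adjusted p = 0.069), for a transcript of 1362 nt.

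Across the 32 genes the change in dKO against WT followed transcript length, with Spearman's rho of -0.81 over 32 genes, which share libraries and are not independent. After removal of the trend it was 0, which is no separate result, since the removal takes out any relation with length. Of the 8 genes of up to 2000 nt, 7 rose, and 50.9% of the 3338 tested genes of that length did so. Their median change was 1.12, beside 1.18 for all genes of that length. Of the 16 genes over 2000 and up to 4000 nt, 3 rose (Eno1, Gpi1 and Pdk3), beside 18.9% of all genes of that length, and none fell, beside 17.3%. Of the 8 genes over 4000 nt, 3 fell, beside 54.4%, and their median change was -0.82, beside -1.23. Pfkp, with the longest transcript of the set at 8681 nt, changed by -0.40 on the deposited values and by 0.60 with the trend removed, and passed on neither. With dKO 3 also left out it was called, at 0.83 (SE 0.23, limma adjusted p = 0.0214).

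**Figure D4:**
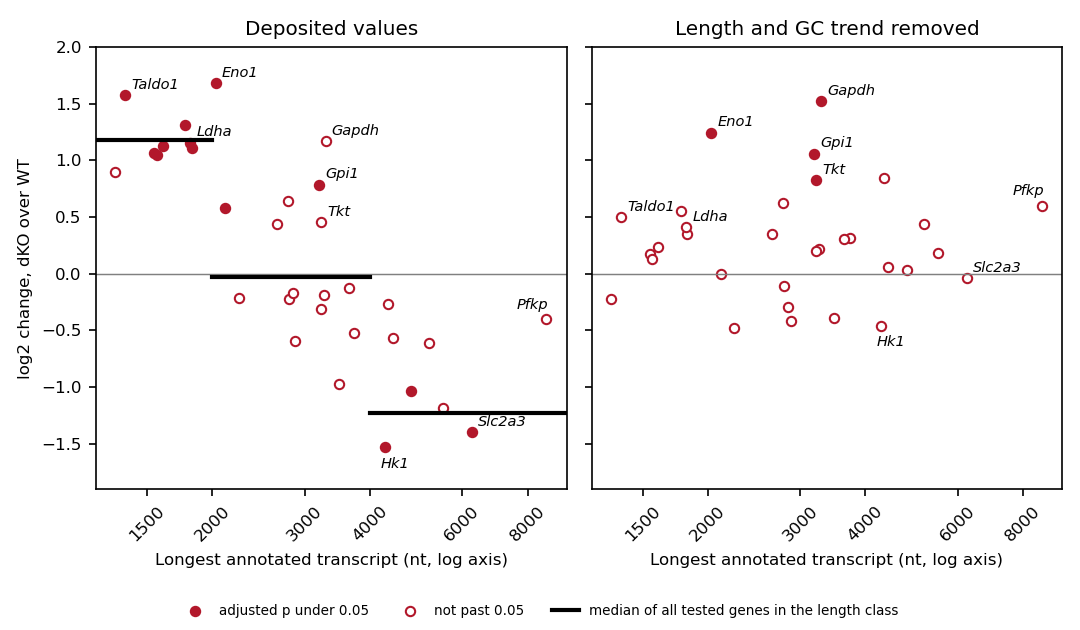
Log2 change in dKO over WT (y axis) of the 32 genes against the length of the longest annotated transcript (x axis, log scale), on the deposited values (left, black lines are medians of all tested genes up to 2000 nt, over 2000 and up to 4000 nt, and over 4000 nt) and after removal of the length and GC trend (right). The points run down from left to right on the left, with rho -0.81. On the right they show no slope, since the removal takes out any relation with length, and Eno1, Gapdh, Gpi1 and Tkt are filled.

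Isoenzyme shares were set per kilobase within each library. Hk3 made up 35.3%, 36.6% and 43.7% of hexokinase signal in dKO, against 22.1%, 17.0% and 26.0% in WT, so all 3 dKO libraries were above WT. Hk1 made up 58.4% ± 6.45 in dKO and 75.4% ± 4.38 in WT (SD, n = 3 each). Slc2a1 made up 50.2%, 56.9% and 60.6% of the signal of the 2 glucose transporters in dKO, against 35.7%, 33.5% and 36.9% in WT, again without overlap. Hk3 (3219 nt) and Slc2a1 (3260 nt) are the shorter partners of Hk1 (4278 nt) and Slc2a3 (6253 nt). Pdk3 made up 57.3%, 68.9% and 78.8% of the signal of the 3 kinase genes in dKO, against 54.5%, 51.8% and 51.2% in WT, highest in dKO 3. Pdk3 (2115 nt) is also the shortest of its family, beside Pdk2 (2246 nt) and Pdk1 (5185 nt). Within the phosphofructokinases the share of Pfkl was 69.1% ± 3.52 in dKO and 69.1% ± 2.23 in WT, and Ldha made up 94.1% ± 4.84 of lactate dehydrogenase in dKO and 94.3% ± 1.23 in WT. Aldoa and Eno1 were the main forms in every library, with Aldoa at 97.2% ± 0.030 in dKO and 96.2% ± 0.531 in WT, and Eno1 at 93.5% ± 2.9 in dKO and 90.1% ± 1.44 in WT. No test was made on the shares.

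**Figure D5:**
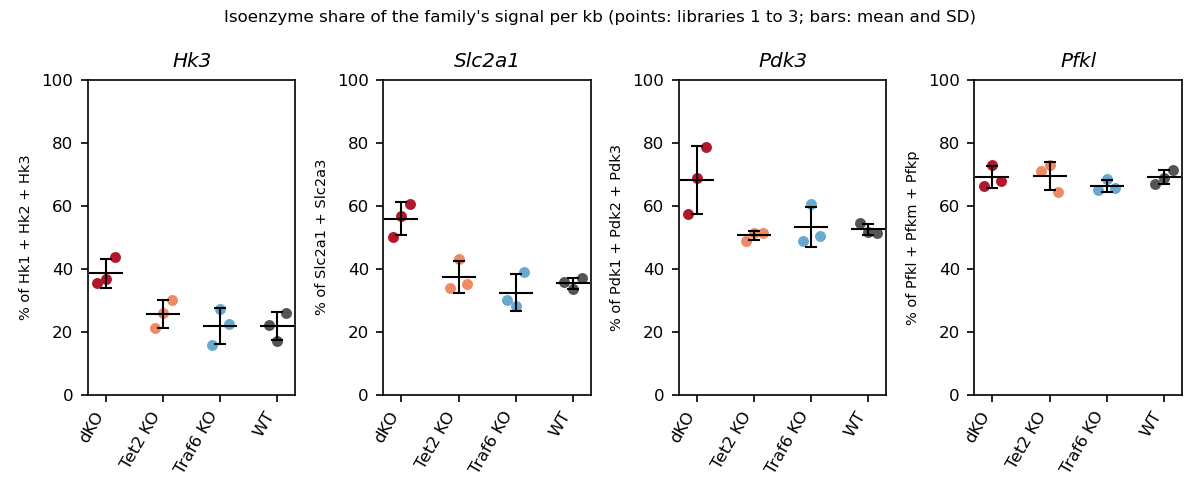
Share of 1 isoenzyme in the signal per kb of its family (y axis, percent) in each library, with points for libraries 1 to 3 and bars for the mean and SD of each genotype. Hk3 and Slc2a1 are higher in all 3 dKO libraries than in the 3 WT libraries, and Pfkl overlaps between genotypes.

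Against Tet2 KO, 8 of the 32 genes rose and 7 fell in dKO, that is 25% and 21.9%, beside 15.5% higher and 19.9% lower among all tested genes. On equal library totals the split was 5 higher and 7 lower, that is 41.7% higher among the called, against 53.3%, with 10.3% of all genes higher and 24.3% lower. The comparison shares its dKO libraries with the one above. Among those that rose, Ldha changed by 1.17 (SE 0.21, limma adjusted p = 0.00613), Pgk1 by 1.08 (SE 0.27, limma adjusted p = 0.0137) and Pgam1 by 1.13 (SE 0.31, limma adjusted p = 0.0178). Eno1 changed by 0.85 (SE 0.26, limma adjusted p = 0.024), Tpi1 by 0.95 (SE 0.28, limma adjusted p = 0.024) and Aldoa by 0.79 (SE 0.27, limma adjusted p = 0.0395). Taldo1 of the pentose phosphate pathway changed by 1.04 (SE 0.33, limma adjusted p = 0.0295). At glucose entry Slc2a3 changed by -1.32 (SE 0.30, limma adjusted p = 0.0102) and Hk1 by -1.52 (SE 0.32, limma adjusted p = 0.00872), and Pfkfb3 by -0.97 (SE 0.30, limma adjusted p = 0.0249). Pfkm, Pfkfb4, Pfkl and Pdk2 were not called against WT but were called here. Pfkm changed by -0.91 (SE 0.30, limma adjusted p = 0.0323) and Pfkfb4 by -1.34 (SE 0.45, limma adjusted p = 0.0345). Gpi1 rose by 0.60, and Pfkl and Pdk2 changed by -0.72 and -0.74, with limma adjusted p between 0.0412 and 0.0464. With 1 library left out in turn, the call of Gpi1 held in 1 of 12 fits, that of Pdk2 in 2 and that of Pfkl in 4. Without the library labelled Tet2 KO 1, only Ldha stayed higher and only Hk1 and Slc2a3 lower. Over all genes 206 were then higher and 661 lower, against 2174 and 2789 with all 12 libraries. Without Tet2 KO 2 or Tet2 KO 3 the count was 9, without dKO 2 it was 7 and without dKO 3 it was 6. In these fits, in that order, 1340, 1541, 1570 and 1214 of all genes were higher and 2090, 2027, 1733 and 2076 lower. Fitted on these 6 libraries alone, or with the libraries labelled Tet2 KO 1 and Traf6 KO 1 both left out, none passed. Among all genes 16 and 26 were then higher and 8 and 31 lower. On the scale free of the trend Gpi1 (0.92) and Tkt (0.63) rose and Pdk2 (-0.84) fell, beside 8.97% higher and 6.04% lower among all genes.

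Against Traf6 KO, 7 genes rose and 2 fell in dKO, that is 21.9% and 6.25%, beside 17.3% higher and 20.7% lower among all genes. On equal library totals the split was 4 higher and 3 lower, that is 57.1% higher among the called, against 77.8%, with 12.6% of all genes higher and 22.1% lower. Taldo1 changed by 1.22 (SE 0.33, limma adjusted p = 0.017) and Tpi1 by 1.05 (SE 0.28, limma adjusted p = 0.017). The aldolases Aldoa and Aldoc changed by 1.02 (SE 0.27, limma adjusted p = 0.0162) and 0.96 (SE 0.34, limma adjusted p = 0.0406). With 1 library left out in turn, the call of Aldoa held in 10 of 12 fits and that of Aldoc in 3. Lower in the pathway Pgam1 changed by 1.05 (SE 0.31, limma adjusted p = 0.0227), Eno1 by 0.78 (SE 0.26, limma adjusted p = 0.0324) and Ldha by 0.62 (SE 0.21, limma adjusted p = 0.033). Slc2a3 changed by -1.45 (SE 0.30, limma adjusted p = 0.00475) and Hk1 by -1.52 (SE 0.32, limma adjusted p = 0.00552). Hk1 and Slc2a3 kept this call without any 1 of the 12 libraries. Without the library labelled Traf6 KO 1, without Traf6 KO 3, or without both libraries labelled Tet2 KO 1 and Traf6 KO 1, these 2 genes were the only ones of the list to pass. Over all genes 508, 432 and 262 were then higher and 1766, 1637 and 1444 lower, against 2432 and 2910 with all 12 libraries. The count was 5 without dKO 2, 6 without dKO 3 and 15 without dKO 1, and on the 6 libraries alone none passed. In these fits, in that order, 1821, 836, 3290 and 78 of all genes were higher and 2218, 2254, 3656 and 892 lower. After removal of the trend Pfkp alone rose, at 0.86 (SE 0.25, limma adjusted p = 0.0324), and 0 genes fell, beside 8.23% higher and 10.1% lower among all genes.

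None of the 32 genes was called in either single knockout on the deposited values. In Tet2 KO against WT limma called 0 higher and 0 lower, beside 0.107% and 0.306% of all genes, and only Eno1 had an unadjusted p under 0.05. In Traf6 KO against WT it also called 0 and 0, beside 0.0783% and 0.192%, with Eno1 and Ldha at an unadjusted p under 0.05. edgeR and DESeq2 on the recovered reads called 0 of the 32 in both comparisons. Changes in Tet2 KO ran between -0.80 (Eno2) and 0.83 (Eno1), with a median of 0.19 beside 0.02 over all genes. In Traf6 KO they ran between -0.37 (Pfkl) and 0.91 (Eno1), with a median of 0.08 beside -0.03 over all genes. With the trend removed and dKO 3 left out, Eno1 was called in Traf6 KO against WT, at 0.95 (SE 0.19, limma adjusted p = 0.0408).

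The interaction asked whether loss of Traf6 acts differently in a Tet2 KO background than in WT. limma called 0 of the 32 genes, beside 0.107% higher and 0.114% lower among all genes, and edgeR and DESeq2 called 0 as well. At an unadjusted p under 0.05 stood 4 genes, Hk1 at -1.51 (SE 0.46, limma adjusted p = 0.21), Slc2a3 at -1.38 (SE 0.42, limma adjusted p = 0.21), Pfkfb4 at -1.42 and Ldha at 0.64. Without dKO 1 the interaction was called lower for 5 of the 32 genes, Hk1, Slc2a3, Pdk1, Pfkfb4 and Slc16a1, and higher for 0, beside 12.3% lower and 5.13% higher among all genes. With all 12 libraries, a departure of dKO from the sum of the single effects was thus not shown.

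Pgk1, Pdk3, Pdha1 and G6pdx lie on the X chromosome, and the libraries differed in genes that mark sex. Xist, expressed from the inactive X of females, stood at 0.9, 1.3 and 0 in dKO, 3826, 1020.3 and 990.3 in Tet2 KO and 1574, 2095 and 1164 in Traf6 KO, against 17.0, 2.3 and 0 in WT. The Y-linked gene Eif2s3y read 5373, 5668 and 4230.3 in dKO, 2.1, 1 and 55.4 in Tet2 KO and 1524, 2.3 and 0.9 in Traf6 KO, against 3199, 3087 and 2812 in WT. Both were named after their values were seen, and the library labelled Traf6 KO 1 held both. In the comparisons of dKO with a single knockout, and of a single knockout with WT, this difference and genotype cannot be told apart. The interaction, which is built from both single knockouts, has the same limit. This holds for these 4 genes and for the other listed genes.

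Other genes of these pathways were read from lists. Of 27 tested other glycolytic and hexose entry enzymes, 6 rose and 4 fell in dKO against WT, with a median change of 0.28 beside -0.09 over all genes, and 3 rose and 2 fell with the trend removed, with a median of 0.15. Among all tested genes 21.9% rose and 26.5% fell, and 15.5% and 14.1% with the trend removed. On the deposited values the share that rose was close to that of all tested genes. Fbp1, the gluconeogenic fructose bisphosphatase, stood at 3680.5, 7086 and 5226 in dKO, 1069.5, 1616 and 1251 in Tet2 KO, 2112, 3359.5 and 2085 in Traf6 KO and 1032, 623 and 819 in WT, a change in dKO against WT of 2.67 (SE 0.31, limma adjusted p = 0.000291), and 1.68 (SE 0.30, limma adjusted p = 0.00216) with the trend removed. Galk1 (galactokinase) changed by 1.51, Pfkfb2 by -1.92 and Gpd2, the mitochondrial glycerol phosphate dehydrogenase, by -0.98, all 3 past the threshold. On the scale free of the trend Galk1 and Pfkfb2 stayed past it, at 0.59 and -1.17, and Gpd2 was at 0.26. Pkm, pyruvate kinase, named outside the rule, stood at 30297, 30963 and 25614 in dKO, 18523, 31135 and 21902 in Tet2 KO, 22143, 27172 and 28555 in Traf6 KO and 18699, 21048 and 22947 in WT, and its change of 0.47 did not pass (limma adjusted p = 0.084).

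Of 12 tested other pentose phosphate enzymes, 5 rose and 1 fell in dKO against WT, with a median of 0.41, beside 21.9% higher and 26.5% lower among all genes. After removal of the trend 3 rose and 2 fell, with a median of -0.05, beside 15.5% higher and 14.1% lower among all genes. Dera, deoxyribose phosphate aldolase, stood at 5996, 8672 and 7914 in dKO, against 3735, 2846 and 2828 in WT, and changed by 1.26 (SE 0.23, limma adjusted p = 0.00119) and, with the trend removed, by 1.17. H6pd, the pentose phosphate dehydrogenase of the endoplasmic reticulum, stood at 1098, 459 and 459 in dKO, against 2404, 2614 and 2732 in WT, and changed by -2.07 (SE 0.34, limma adjusted p = 0.00079) and, with the trend removed, by -0.79. Rbks (ribokinase) changed by 1.95 and Prps1 (phosphoribosyl pyrophosphate synthetase) by 0.97, and after removal of the trend by 0.67 and 0.28, where Prps1 did not pass.

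Of 16 tested other pyruvate handling genes, 3 rose and 4 fell, with a median of -0.20, beside 21.9% higher and 26.5% lower among all genes. The sign of that median turned with the trend removed, to 0.10, with 3 higher and 2 lower, beside 15.5% and 14.1% among all genes. Pdpr, the regulatory subunit of pyruvate dehydrogenase phosphatase, stood at 162, 61.3 and 37.5 in dKO, against 928, 1085 and 1128 in WT, and changed by -3.83 (SE 0.57, limma adjusted p = 0.000508) and, with the trend removed, by -2.79. Pdhb, the beta subunit of pyruvate dehydrogenase, changed by 1.22, and the malate dehydrogenases Mdh1 and Mdh2 by 1.32 and 1.53. Taking off the trend left them called, at 0.80, 0.72 and 0.63. Of 16 tested other hexose and monocarboxylate transporters and their partners, 3 rose and 3 fell, with a median of -0.46, beside the same 21.9% and 26.5%. Here too the sign of the median turned with the trend removed, to 0.25, with 3 higher and 3 lower, beside the same 15.5% and 14.1%. Emb (embigin) and Bsg (basigin) encode the chaperones that carry monocarboxylate transporters to the surface. Emb stood at 29689.6, 26561 and 34318 in dKO, against 7548, 7564 and 11728 in WT, and changed by 1.78 (SE 0.27, limma adjusted p = 0.000508) and, with the trend removed, by 1.69. Bsg changed by 1.30, and by 0.40 with the trend removed (limma adjusted p = 0.163). Slc16a4 was called lower at 5.6, 0 and 0 in dKO, against 61.7, 18.3 and 24.0 in WT. On the deposited values limma called none of the genes of these 4 lists in Tet2 KO against WT, Traf6 KO against WT or the interaction. On the scale free of the trend Fbp1 alone of them was called, higher in Traf6 KO against WT, at 1.55 (SE 0.30, limma adjusted p = 0.045).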

How the data were processed

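Per the labels' protocols, RNA of sorted LSK cells went through the SMART-Seq v4 low-input kit and a HiSeq 4000 sequencer. That kit does not mark strand. The authors deposited a normalised signal per gene and library. Per the submitters' processing notes, the tools were STAR, featureCounts, bcl2fastq and DESeq2, with GRCm38 and mm10 as builds. Their versions and settings are not stated in the sources used here. Whole reads were recovered for 100% of values (tolerance 1e-06) by dividing by the lowest value above 0 of each library.

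The test was limma 3.58.1 (R 4.3.3; trend and robust) on log2(value + 1), which understates changes of low genes. It was fitted on all 12 libraries as 4 groups, for genes of at least 10 in at least 3 libraries, with Benjamini-Hochberg adjustment within a comparison. On the recovered reads edgeR 4.0.16 and DESeq2 1.42.0 were alternatives. edgeR's quasi-likelihood test called 6607 genes in dKO against WT, 4989 in dKO against Tet2 KO and 5250 in dKO against Traf6 KO. It called 47 in Tet2 KO against WT, 28 in Traf6 KO against WT and 31 in the interaction. The code was tested on simulated data.

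Lengths, GC content and positions came from GENCODE M21 (GRCm38) for 97.4% of tested genes. The trend was a loess fit (span 0.5, degree 2) per library, and promoters came from RefSeq. The members, lists and tests were chosen with earlier results of these data known. All 32 members are named. Those called get full statistics, up to 12 a comparison, and each list up to 4 called genes by smallest p. Marker lists (LSK gate and stem cell, mature erythroid, neutrophil and monocyte, lymphocyte, megakaryocyte and platelet, mast cell and basophil, stromal and endothelial) name up to 3 abundant genes. Of the genes that this rule picks, 1 is not reported here.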

Additional observations from a re-analysis of the deposited data

How the results depend on the processing

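On the deposited values limma called 13 of the 32 genes in dKO against WT, 15 in dKO against Tet2 KO and 9 in dKO against Traf6 KO. A pseudocount of 5 left the counts as they were. With the length and GC trend removed they were 4, 3 and 1, with a replicate block added 4, 4 and 2, and with dKO 3 left out in its place 7, 4 and 1, with 1 gene in Traf6 KO against WT. This last setting was added after seeing the data. With no filter dKO against Tet2 KO had 9. On the 2 compared groups alone both comparisons of dKO with a single knockout had 0, and with the libraries labelled Tet2 KO 1 and Traf6 KO 1 both left out they had 0 and 2. Leaving out 1 library in turn gave 10 to 19 genes in dKO against WT, 3 to 17 in dKO against Tet2 KO, 2 to 15 in dKO against Traf6 KO, and 0 to 5 in the interaction. The cause of these shifts was not tested. Of 37 changes called for single genes, 13 of 851 alternative values changed sign, all with the trend removed. With the trend removed, with or without the block, Pdk3 in dKO against WT was -0.004, Pfkfb3 0.033, Pfkl in dKO against Tet2 KO 0.055 and Ldha in dKO against Traf6 KO -0.147. With dKO 3 also left out, Slc2a3 and Pfkfb3 in dKO against WT were 0.352 and 0.166, and Pfkl, Slc2a3 and Pfkfb3 in dKO against Tet2 KO 0.184, 0.038 and 0.039. A further 254 values kept the sign and missed the threshold. Deviations of same-numbered libraries correlated between -0.18 and 0.19. Libraries with different numbers were not compared in this way, so whether the replicate numbers pair the libraries was not settled. The replicate block gave 13, 13 and 8 genes in the 3 dKO comparisons. Depth, at 22169673 reads or more, left genes such as Eno2, at 21.3 to 99.8 signal units, with wide errors.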

Other observations

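Regulators of glycolysis were called lower more often than higher in dKO, though on the deposited values the share that fell was close to that of all genes. Of 26 tested regulators, 7 fell and 1 rose in dKO against WT, beside 26.5% lower and 21.9% higher among all genes. With the length and GC trend removed 6 fell and 2 rose, beside 14.1% lower and 15.5% higher among all genes. Hif1a, which encodes the oxygen-regulated subunit of hypoxia-inducible factor 1, stood at 1592, 638 and 422 in dKO, 4589, 4042 and 2606 in Tet2 KO, 4277, 2786 and 3653 in Traf6 KO and 3379, 3563 and 4021 in WT. All 3 dKO libraries lay below the other 9, and the change in dKO against WT was -2.27 (SE 0.40, limma adjusted p = 0.00104), and -1.58 (SE 0.29, limma adjusted p = 0.00246) with the trend removed. Its partner Arnt stood at 1205, 359 and 398 in dKO, against 2358, 2604 and 2706 in WT, a change of -2.19 (SE 0.37, limma adjusted p = 0.000868), and -1.42 with the trend removed. Hif1an, which encodes the asparagine hydroxylase that restrains these factors, stood at 342, 181 and 350.3 in dKO, against 1485, 2256 and 2129 in WT, a change of -2.78 (SE 0.35, limma adjusted p = 0.000302), and -1.28 with the trend removed. Egln3, a prolyl hydroxylase that marks these factors for breakdown and is itself one of their targets, was the regulator that rose, at 1713, 1563 and 1319 in dKO, against 585, 466 and 797 in WT, a change of 1.34 (SE 0.30, limma adjusted p = 0.00392), and 1.22 with the trend removed. Myc stood at 27733, 28914 and 19627 in dKO, 18726, 23839.5 and 23186 in Tet2 KO, 11543, 17426 and 21305 in Traf6 KO and 18778, 19732 and 19670.5 in WT, and its change of 0.37 in dKO against WT did not pass (limma adjusted p = 0.214).

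Other targets of hypoxia-inducible factors did not move as 1 group. Of 15 tested, 4 rose and 2 fell in dKO against WT, beside 21.9% higher and 26.5% lower among all genes. Their median was -0.12, beside -0.09 over all genes. With the trend removed 2 rose and 1 fell, beside 15.5% and 14.1% of all genes, and the median was 0.17. Car9 (carbonic anhydrase 9) changed by 1.05 and Higd1a, a mitochondrial protein gene, by 1.44, while the histone demethylase gene Kdm3a changed by -1.87. With the trend removed Car9 and Higd1a did not pass (limma adjusted p = 0.117 and 0.0592), and Kdm3a did, at -0.99. In both single knockouts against WT and in the interaction limma called none of these targets or regulators.

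Some markers of other cell types also differed in the dKO libraries, and their part in the results on glycolytic genes was not tested. Among all tested genes 21.9% rose and 26.5% fell in dKO against WT, and 15.5% and 14.1% with the trend removed. On the deposited values the shares of erythroid and lymphocyte markers that rose, and of megakaryocyte and platelet markers that fell, were near these. Of 7 tested mast cell and basophil markers, 5 rose and 0 fell in dKO against WT, and the summed level of the 9 listed genes ran over 5986 to 10491 in dKO, 1376 to 1770 in Tet2 KO, 3687 to 9376 in Traf6 KO and 1360 to 2214 in WT. Cpa3 and Mcpt8, mast cell and basophil proteases, stood at 3547, 6672 and 5667 and at 2029, 2786 and 3553 in dKO, against 1794, 1220.1 and 1608 and 196, 77.7 and 153 in WT. Of 12 LSK gate and stem cell markers 7 fell and 0 rose, and with the trend removed 4 fell and 1 rose. Kit and the stem cell factor Mecom changed by -3.00 and -2.85, and by -1.83 and -1.68 with the trend removed, though Cd34 stood at 40877 to 59383 in dKO, against 37782 to 52709 in WT, and the 12 genes summed to 93059 to 111951 in dKO, 125572 to 167426 in Tet2 KO, 117043 to 152173 in Traf6 KO and 140172 to 155156 in WT. Of 10 mature erythroid markers 2 rose, with Car1 at 29981, 12926 and 23561 in dKO, against 1868, 1089 and 1751 in WT, and a sum of 81524 to 119047 in dKO, 58549 to 177355 in Tet2 KO, 50323 to 60697 in Traf6 KO and 44226 to 55677 in WT. Of 11 mature neutrophil and monocyte markers 1 rose and 1 fell, with a sum of 5013 to 7419 in dKO, 2143 to 3272 in Tet2 KO, 2798 to 5861 in Traf6 KO and 2038 to 5024 in WT. Of 8 mature lymphocyte markers 2 rose and 1 fell, with a sum of 17789 to 81401 in dKO, 17429 to 27732 in Tet2 KO, 20895 to 25602 in Traf6 KO and 17610 to 20329 in WT, with Nkg7 at 7361, 10721 and 49423 in dKO, against 4565, 3418 and 3888 in WT, and Cd3e at 0 in all 12 libraries. Of 10 megakaryocyte and platelet markers 1 rose and 3 fell, with a sum of 13456 to 22051 in dKO, 20051 to 22814 in Tet2 KO, 26983 to 36789 in Traf6 KO and 23413 to 31375 in WT. Of 5 stromal and endothelial markers 0 rose and 3 fell, with a sum over 10 listed genes of 1789 to 5179 in dKO, 5741 to 8442 in Tet2 KO, 5950 to 8603 in Traf6 KO and 5687 to 7454 in WT. Once the trend was taken off, 5 mast cell and basophil markers were higher and 0 lower. On that scale 6 megakaryocyte and platelet markers fell and 0 rose, and 0 stromal and endothelial markers were called. Of the other lists, 1 mature erythroid, 2 neutrophil and monocyte and 1 lymphocyte marker rose there and 0 fell.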
